A study of Mus musculus with 6 samples.

Results

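The cytosolic ribosomal protein genes of the mouse were followed by subunit in an RNA-seq experiment on GFP+ marrow cells of mice transplanted with MLL-AF9 leukemia. Members were chosen by name alone: protein-coding symbols made of Rpl or Rps and a digit, plus Rplp0, Rplp1, Rplp2 and Rpsa, without the Rps6k kinases and without pseudogene names. The rule found 86 genes of the 55487 in the table, 52 of the large and 33 of the small subunit, and 1 that carries the name only. That gene, Rps19bp1, encodes a binding protein. It is in the counts and medians over all members but in neither subunit. Of the 85 subunit genes, 77 are core genes, 46 large and 31 small, and 8 are variants that copy a core gene. Fau and Rack1, which also encode proteins of the ribosome, lie outside the rule and are given among the other translation genes.

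Each ribosome is built from a small subunit, which holds the mRNA and decodes it, and a large subunit, which joins the amino acids, and every protein except those of the stalk is present once. The mRNAs of these proteins are short and very abundant, and their transcripts usually begin with a stretch of pyrimidines, the 5′ terminal oligopyrimidine (TOP) tract, through which their translation responds to mTOR and LARP1. Their output is tied to cell growth, and in blood a shortage of some of them causes Diamond-Blackfan anemia. The like variants Rpl22l1, Rpl39l, Rpl7l1 and Rps27l are encoded by separate genes that resemble Rpl22, Rpl39, Rpl7 and Rps27.

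The libraries, PBS 1 to 3 and pIpC 1 to 3, came from GFP+ cells of femoral and tibial bone marrow, 3 in each group (n = 3). The donor leukemia cells were CD45.2(+) Mx1-Cre Brd9fl/fl MA9 on the C57BL/6 strain and the recipients were CD45.1(+) CD45.2(-), so both groups carried the floxed Brd9 alleles and the Cre. Recipients had been irradiated and transplanted with 1000 cells, and from the next day received 3 injections of PBS or of pIpC (20 mg/kg), with cells taken 10 days after injection. pIpC is a double-stranded RNA mimic that raises interferon, and interferon switches on the Mx1 promoter that drives Cre, so an effect of pIpC itself and an effect of the deletion cannot be told apart in this design. The labels do not say whether libraries of a group came from separate recipients, and p-values measure the spread between these samples only.

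The labels were checked before the comparison. Brd9, the targeted gene, was not lower in the libraries labelled pIpC: its normalized count (reads divided by 1 size factor per library) was 1927, 1946 and 1632 in PBS 1, 2 and 3 and 2036, 2263 and 2011 in pIpC 1, 2 and 3, with no overlap between the groups (exact permutation test, two-sided, p = 0.1, the smallest that 3 against 3 allows). The count covers the whole gene and does not separate the deleted exons. The cell content also moved with the label. The leukemia genes Hoxa9, Hoxa10 and Meis1 fell, with Hoxa9 at 4917 to 5301 in PBS and 224 to 276 in pIpC, whereas Mecom and Mef2c rose. All 11 neutrophil maturation genes rose, their summed normalized count going from 17792 to 39399 in PBS to 2040471 to 2107420 in pIpC. All 9 erythroid genes rose (summed 20.8 to 37.3 against 3808 to 5733), all 8 B cell genes rose (136 to 304 against 1284 to 2321), and the 5 of 8 T and NK cell genes that were tested rose (summed over all 8, 21.3 to 23.4 against 175 to 203). Slc4a1 and Ms4a1 were at 0 in all PBS libraries. Xist, looked at after its values were seen, was 15.8 to 72.9 in PBS and 18429 to 26172 in pIpC. The labels name the same donor leukemia for both groups, yet by these genes the groups differed in cell content. A change within leukemia cells and a change in which cells were sampled therefore cannot be told apart here. The part of these differences in the results on ribosomal protein genes was not tested. In such bulk samples fewer cells of a type and less RNA per cell cannot be told apart either.

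PBS 3 stood apart from the other PBS libraries, and results that rest on it are given with and without it. Its ribosomal protein counts were far above those of PBS 1 and 2, and over all 15020 genes tested its log2 difference from PBS 1 and 2 fell with transcript length (Spearman rho -0.50 across genes, which share the same libraries and are not independent). Short transcripts were higher in it and long ones lower: the median difference was 0.96 for the 903 genes with transcripts of 701 to 1000 bp and -0.88 for the 1402 above 6000 bp. Core ribosomal protein transcripts are short, with a median of 780 bp against 2543 bp over all genes tested. Among the members the PBS 3 difference also fell with length (rho -0.40), but it lay above that of all genes of like length. The medians were 1.37 against 0.96 at 701 to 1000 bp (24 members) and 1.35 against 0.20 at 1501 to 3000 bp (8 members). At 3001 to 6000 bp (2 members) they were 1.65 against -0.33. The part of length in the members' difference was not tested. The pIpC libraries showed little trend with length against PBS 1 and 2 (rho 0.08 over all genes). Depth was similar throughout, with 19277439 to 22378154 reads in PBS and 22348517 to 23586722 in pIpC. PBS 3 is set apart here partly by the ribosomal protein counts themselves, and fits without it keep only PBS 1 and 2 in that group. Adjusted p-values and counts called in those fits are therefore a description and give no separate support.

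**Figure D1:**
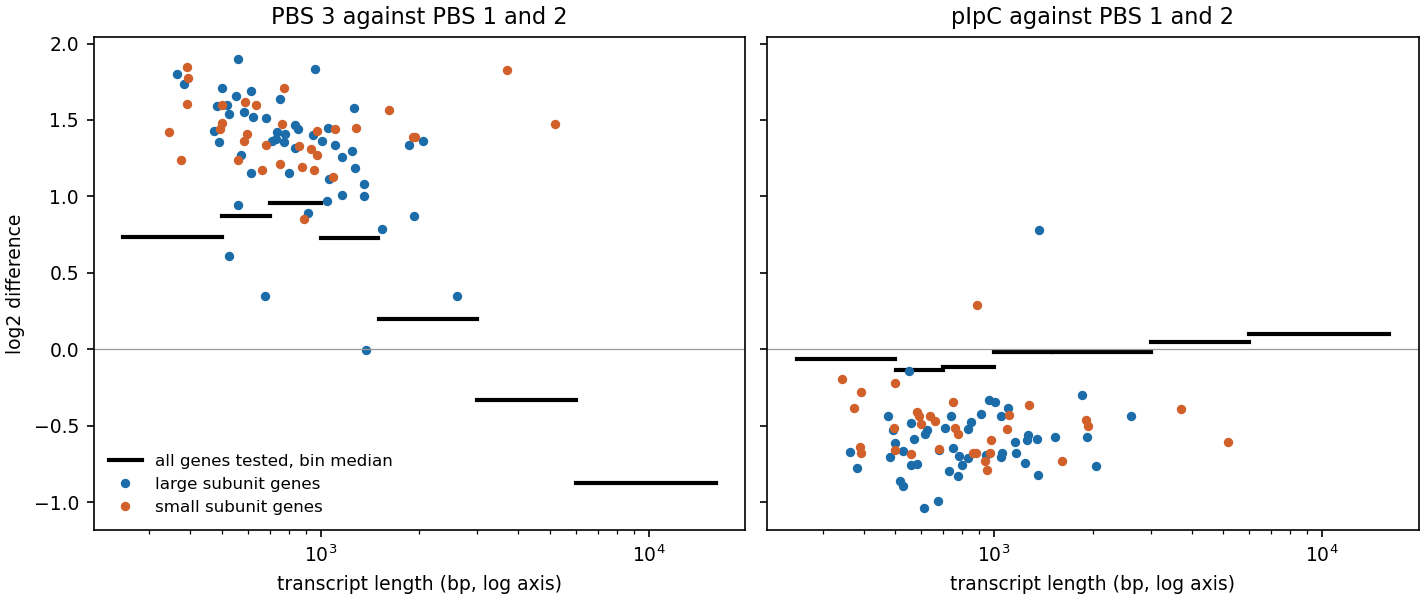
Log2 difference from the mean of PBS 1 and 2 (vertical axis) against transcript length in bp (log axis) for PBS 3 and for the mean of the pIpC libraries. Points are the tested large and small subunit genes and black lines are medians over all genes tested in 7 length bins; in PBS 3 the all-gene medians run from 0.96 in the 701 to 1000 bp bin to -0.88 above 6000 bp, while the pIpC lines stay between -0.14 and 0.10.

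The sequence around the transcription start was taken from RefSeq (GRCm38.p6) for the 4 like variants and for Rpl22, Rpl39 and Rps27 of their parents, because these genes carry the comparison of variants, and for Rps10, Rps6 and Rpl4 as core genes of different behaviour. Each line gives 15 bases before and 15 bases from the annotated start on the gene's own strand, and capitals mark the longest unbroken run of C and T, the kind of stretch a TOP tract is made of. Where a gene has several starts, the nearest to the 5′ end of the GENCODE transcript is shown.
Rpl22, chr4:152325711-152325740, plus strand: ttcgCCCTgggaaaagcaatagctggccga
Rpl22l1, chr3:28805493-28805522, plus strand: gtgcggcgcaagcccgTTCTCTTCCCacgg
Rpl39, chrX:37085208-37085237, minus strand: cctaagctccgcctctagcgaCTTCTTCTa
Rpl39l, chr16:10170213-10170242, plus strand: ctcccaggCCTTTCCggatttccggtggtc
Rpl7l1, chr17:46782642-46782671, minus strand: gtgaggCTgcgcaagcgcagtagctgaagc
Rps27, chr3:90213634-90213663, minus strand: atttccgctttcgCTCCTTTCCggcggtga
Rps27l, chr9:66946071-66946100, plus strand: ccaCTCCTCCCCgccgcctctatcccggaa
Rps10, chr17:27635230-27635259, minus strand: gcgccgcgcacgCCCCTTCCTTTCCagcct
Rps6, chr4:86857353-86857382, minus strand: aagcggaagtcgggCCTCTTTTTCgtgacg
Rpl4, chr9:64173372-64173401, plus strand: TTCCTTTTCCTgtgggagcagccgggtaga

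Rps10 held a run of 13 bases, Rpl4 11, Rps6 and Rpl22l1 10, and Rpl7l1 only 2. The runs of Rpl4, Rps27l, Rpl39l, Rpl22 and Rpl7l1 lay wholly before the start shown, so outside a transcript that begins there. Those of Rps10, Rps6 and Rps27 crossed the start, and those of Rpl22l1 and Rpl39 lay after it. The starts shown for Rps10, Rpl39 and Rpl22 were 301, 180 and 127 bases from the GENCODE 5′ end. Rplp0, Rpl36a and Rpl36al, not shown, held runs of 5. A run of at least 8 C or T bases was found in 28 of the 78 starts of the 66 members with an entry (35.9%), against 12% of all 32851 starts in the table and 12% of the 75 starts of mitochondrial ribosomal protein genes. On the opposite strand, read as A and G, such a run was found in 3 of the 78 member starts (3.85%) and in 13.2% of all starts. In the 300 bases from 250 before to 50 after the start, the letters CCGGAA, the core of many ETS family sites, were found on either strand in 47.4% of member starts, 57.3% of mitochondrial ribosomal protein starts and 14.9% of all starts. The letters AAGATGG, part of many YY1 sites, were found in 15.4%, 17.3% and 6.34%, and TATAAA in 8.97%, 6.67% and 13.6%. These matches describe the letters in these windows.

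Reads on ribosomal protein genes took a smaller share of the pIpC libraries than of any PBS library. Large and small subunit genes together took 7.40%, 7.50% and 15.3% of the reads in PBS 1, 2 and 3 and 4.49%, 3.94% and 4.11% in pIpC 1, 2 and 3. PBS 3 held more than any other library, and the groups did not overlap with or without it. The 10 highest genes of a library took 11.6% to 12% of reads in pIpC against 5.55% to 5.85% in PBS. Shares of reads depend on such genes, and the tests below use normalized counts.

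**Figure D2:**
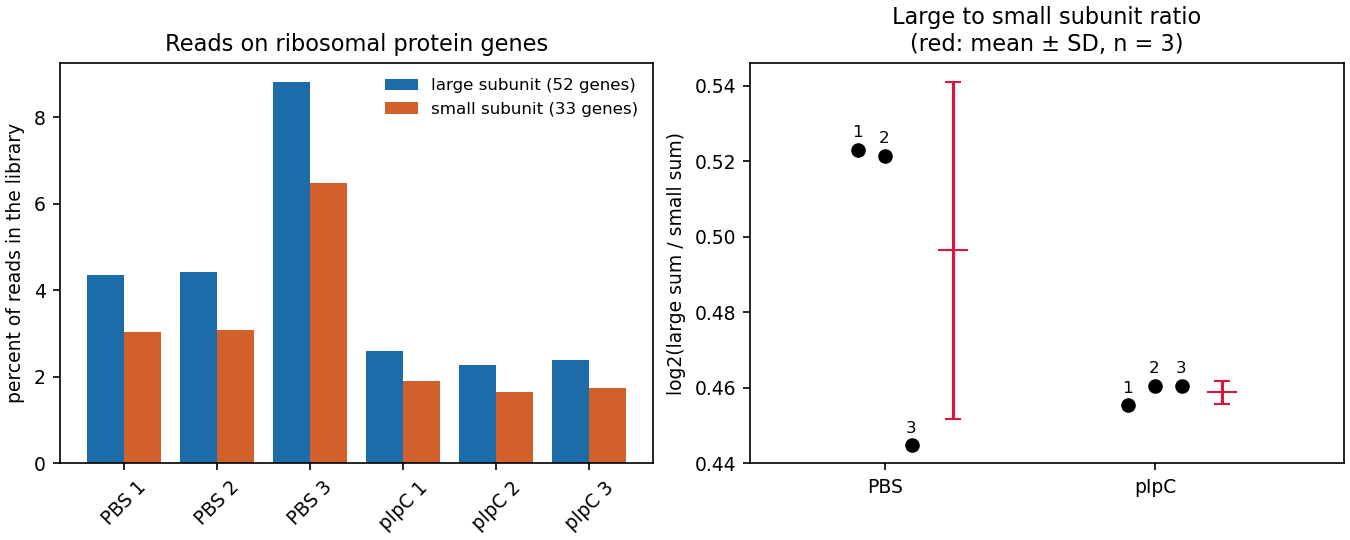
Left, percent of each library's reads on the 52 large and 33 small subunit genes; right, log2 of the large to small ratio of summed normalized counts for each library, numbered by replicate, with the mean ± SD in red (n = 3). The bars for PBS 3 are the highest (8.81% and 6.47%) and all pIpC bars lie under 2.6%, and in the ratio PBS 3 lies at 0.44, below the pIpC libraries.

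The core genes moved together. Relative to the mean of PBS 1 and 2, the median level of the 77 core genes was 2.62-fold in PBS 3 and 0.72-fold, 0.63-fold and 0.65-fold in pIpC 1, 2 and 3. PBS 1 and 2 were close to each other, with an SD over the core genes of 0.04 around their own mean on the log2 scale. They form that reference themselves, so this SD is small by construction and not comparable with that of the pIpC libraries. In the pIpC libraries the SD over core genes was 0.19 to 0.20, so the genes differed in size but 76 of 77 lay below PBS 1 and 2 in each pIpC library. The exception in each was Rps10.

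**Figure D3:**
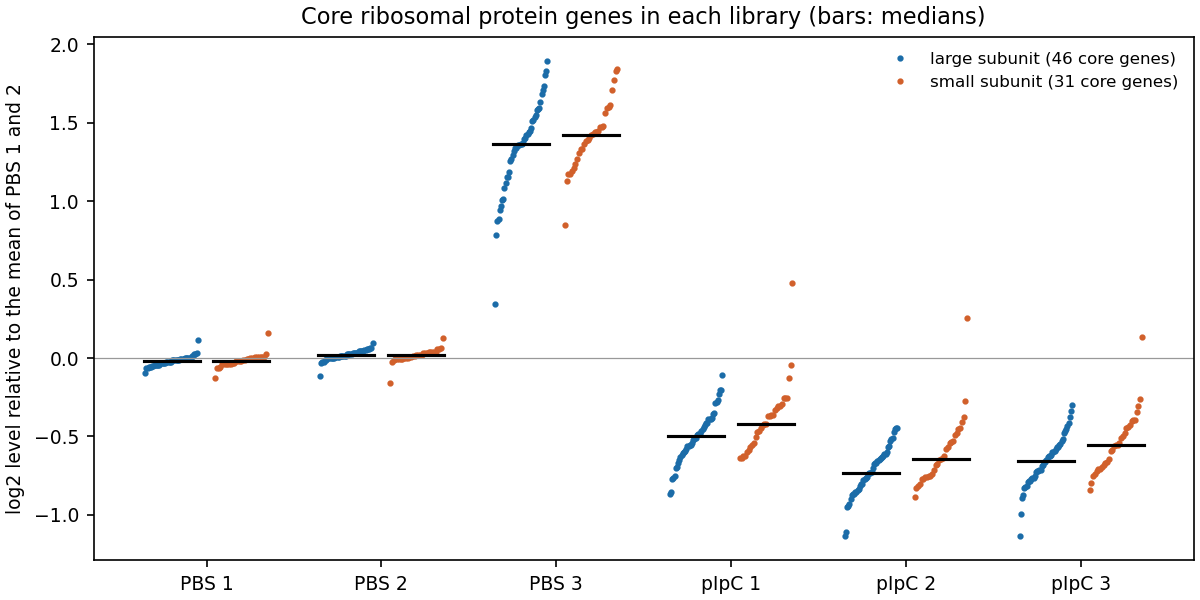
Log2 level of each core gene relative to the mean of PBS 1 and 2 (vertical axis) in the 6 libraries, with large subunit genes in blue, small subunit genes in orange and medians as black bars. Medians in PBS 3 are 1.36 for the large and 1.42 for the small subunit, and in pIpC 1 to 3 they lie between -0.73 and -0.42, with the small subunit bar above the large one in every pIpC library.

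Of the members tested, 59 of 84 were called lower in pIpC and 0 higher (limma on log2(normalized count + 1), adjusted p under 0.1), where 20.4% of all genes tested were called lower and 25.0% higher. The median log2 fold change of the members was -1.02, against 0.01 over all genes tested. Without PBS 3, 78 were called lower and 0 higher with a median of -0.58, against 30.6% lower, 34.5% higher and a median of 0.01 over all genes. The direction thus did not rest on PBS 3, whereas the size did: PBS 3 raised the PBS mean and, with it, the standard error of a typical large subunit gene from 0.08 to 0.38. In 79 of the 84, all pIpC values lay below all PBS values, as they did for 26.3% of all genes tested. The count also depended on which library was in the fit: it was 10, 3 and 3 when pIpC 1, 2 or 3 was left out, with medians of -1.08, -0.97 and -1.0, and 75 and 69 when PBS 1 or 2 was, with medians of -1.24 and -1.23. After the trend with transcript length was removed from each library, 73 were called lower and 1 higher (Rpl3l) with a median of -0.69, where 24.5% of all genes were called lower and 28.9% higher.

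The subunits differed in their counts of calls and little in size, and the difference in counts was not tested. Of 50 large subunit genes tested, 41 were called lower and their median was -1.04 on the log2 scale, and of 33 small subunit genes, 18 were, with a median of -0.99. Without PBS 3 the counts were 48 of 50 and 30 of 33 and the medians -0.61 and -0.51. Over all genes tested, 20.4% were called lower, and 30.6% without PBS 3. The medians of the subunits thus lay within 0.1 of each other in either fit. The ratio of summed large to summed small subunit counts was 1.44, 1.44 and 1.36 in PBS 1, 2 and 3 and 1.37, 1.38 and 1.38 in pIpC 1, 2 and 3. On the log2 scale that is 0.50 ± 0.04 (SD, n = 3) in PBS and 0.46 ± 0.003 in pIpC, a difference of -0.04 that is smaller than the SD of the PBS libraries. PBS 3 lay below all pIpC libraries, and without it the difference was -0.06, with PBS 1 and 2 at 0.52 each. With means of log2 values in place of sums the difference was -0.05, and without the 3 highest genes of each subunit it was -0.04. No test was made of this ratio.

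**Figure D4:**
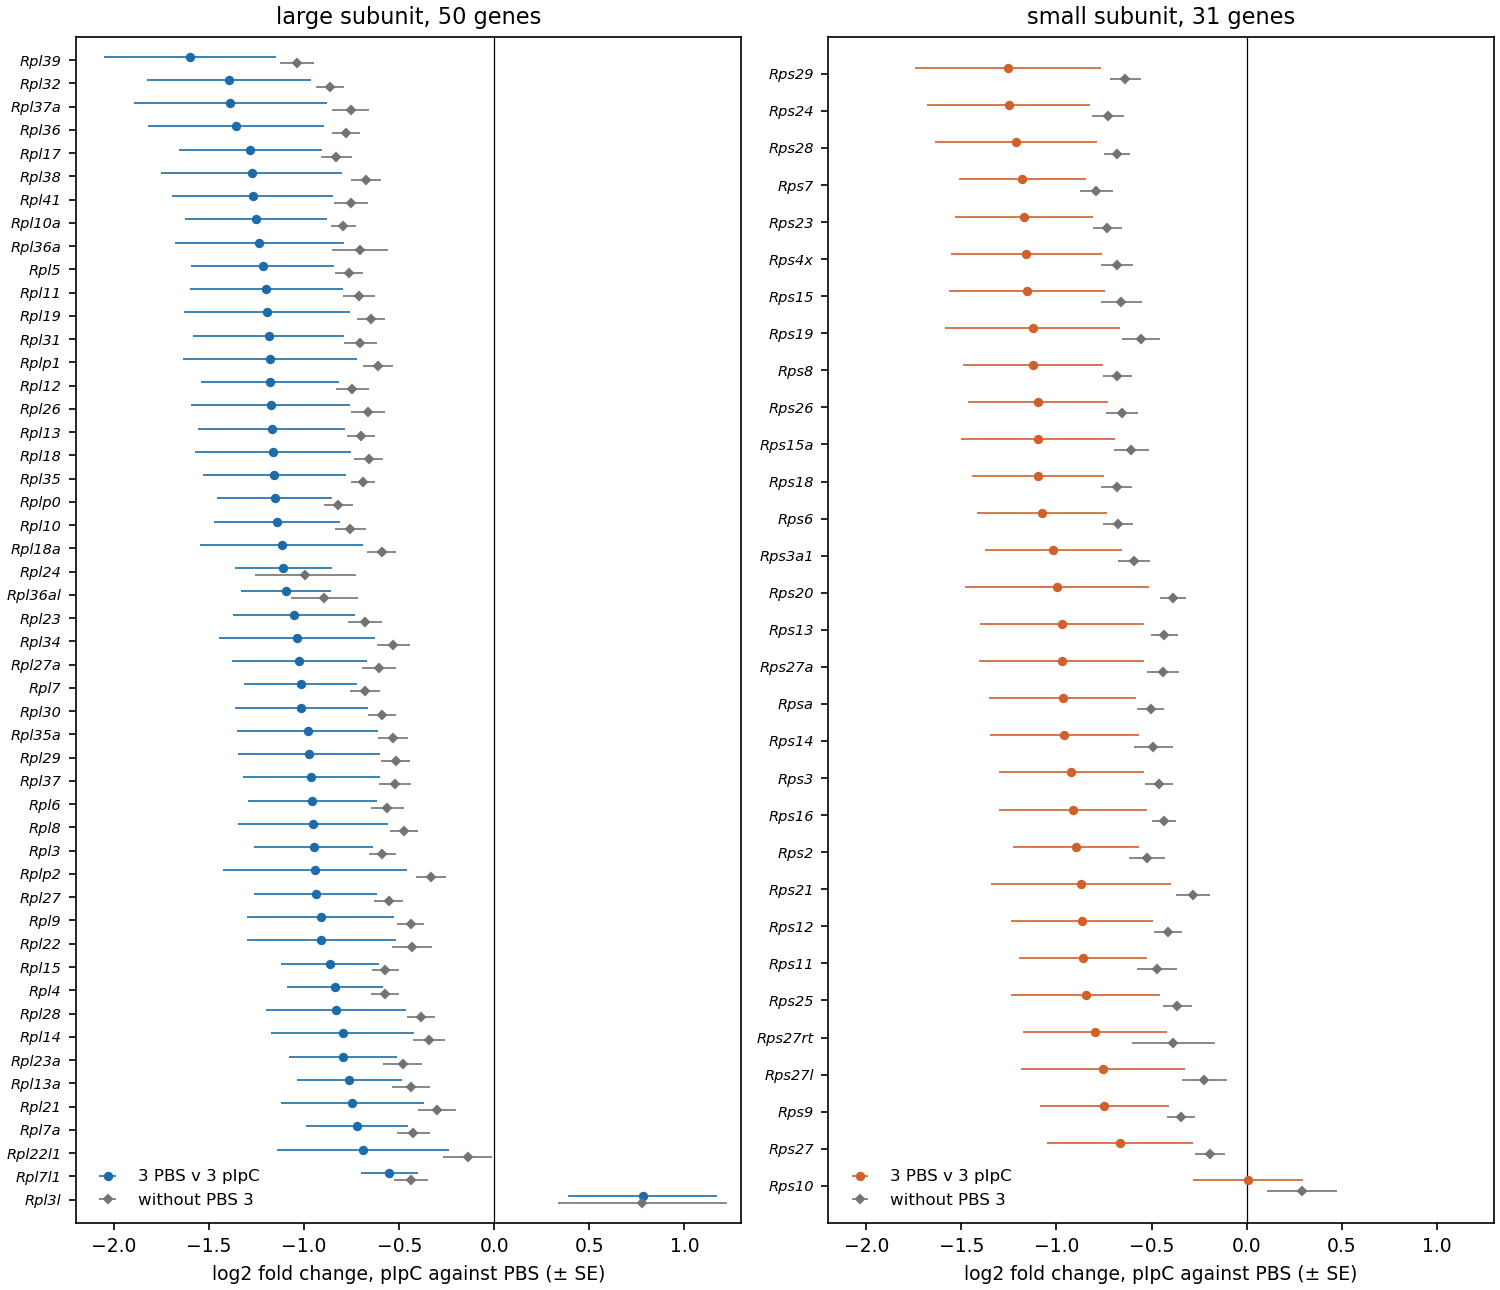
Log2 fold change of pIpC against PBS (± SE) for the 50 large and 31 of the 33 small subunit genes tested, ordered by size, with all 6 libraries (coloured circles) and without PBS 3 (grey diamonds). Leaving PBS 3 out moves nearly all points toward 0 and shortens their bars, and the points right of 0 with all libraries are Rpl3l at 0.78 and Rps10 at 0.01.

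Per kilobase of transcript, the subunits had similar levels. This scale serves to compare levels of different genes but depends on the transcript chosen for each. The median core gene stood at 20509 normalized counts per kb in the large and 21666 in the small subunit in PBS 1, at 21134 and 22886 in PBS 2, and at 50499 and 59324 in PBS 3. In pIpC 1, 2 and 3 it was 14682, 12838 and 13242 in the large and 17136, 14413 and 15141 in the small subunit. The highest large subunit genes by mean level per kb were Rpl41, the shortest protein of the ribosome, at 46534, Rpl13 at 40964 and Rplp0 at 39108. The highest of the small subunit were Rps15 at 50956, Rps14 at 41968 and Rps18 at 41904. All of these except Rps14 fell (limma, Rpl41 by 1.27, Rpl13 by 1.17, Rplp0 by 1.16, Rps15 by 1.15 and Rps18 by 1.10 on the log2 scale, and without PBS 3 by 0.75, 0.70, 0.82, 0.66 and 0.68), and Rps14 stood at -0.96 with an adjusted p of 0.1, just outside the threshold.

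Some core genes were far lower than the rest. Per kb, the mean level of Rpl24 was 64.5 and that of Rpl13a 614, and the next core gene of the large subunit was Rpl15 at 9860.3. Rps10 was at 171 per kb, and the next of the small subunit was Rps20 at 2940.5. The Rps20 value rests on a chosen transcript of 3706 bp, against a core median of 780 bp, and its mean count was 10897. In the annotation, 59% to 71% of the chosen transcripts of Rpl24, Rpl13a, Rps10 and Rpl36al lies in exons of another gene, such as a readthrough transcript, so the counts of these members are uncertain. Overlap was counted on either strand. Rpl35, Rpl23a and Rps25 were also more than 50% overlapped, with mean counts of 9599, 20319 and 16566, but the overlap is not of the same kind. The annotation marks Rpl24, Rpl13a, Rps10 and Rpl36al as overlapping loci, and does not mark Rpl35, Rpl23a and Rps25. It also marks Rpl19, which was 10.7% overlapped with a mean count of 14889. The overlapping genes Gm28037, Gm15420 and RPS10-NUDT3 were themselves listed at 0 in all libraries. Leaving out all 7 members that were more than 50% overlapped left 54 called lower among 77 tested, with a median of -1.02. The part of the overlap in their levels was not tested.

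Within the large subunit, the lowest fold changes were those of Rpl39, Rpl32, Rpl37a, Rpl36 and Rpl17. Rpl39 (chrX:37082520-37085402), a small protein that lines the exit tunnel, was at 6509.9, 7002 and 21738 in PBS 1, 2 and 3 and at 3694, 3135 and 3068 in pIpC 1, 2 and 3. It fell by 1.60 on the log2 scale (SE 0.45, adjusted p = 0.0317), and by 1.04 without PBS 3 (SE 0.09, adjusted p = 1.6e-05). Its groups did not overlap, and its mean in pIpC was 0.49-fold that of PBS 1 and 2. Rpl32 (chr6:115805505-115808747) went from 17351, 17603 and 52842 to 10286, 9038 and 9550.1, a fall of 1.39 (SE 0.43, adjusted p = 0.0431). Rpl37a, Rpl36 and Rpl17, of which the last lines the exit tunnel as well, fell by 1.39, 1.36 and 1.28. Without PBS 3, Rpl32 fell by 0.86, Rpl37a by 0.76, Rpl36 by 0.78 and Rpl17 by 0.83.

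The stalk, which recruits the GTPase translation factors to the ribosome, had 3 of its 4 genes called lower. Counts called in this group and those below stand beside 70.2% of all members tested and 20.4% of all genes tested. Without PBS 3 these shares were 92.9% and 30.6%. The base of the stalk, Rplp0, was at 55469.5, 56221 and 112065 in PBS 1, 2 and 3 and at 32730.4, 30452 and 31711 in pIpC 1, 2 and 3. It fell by 1.16 (SE 0.30, adjusted p = 0.0242) and by 0.82 without PBS 3 (adjusted p = 2.4e-05). Rpl12, at the foot of the stalk, fell by 1.18 and Rplp1, one of the stalk's acidic proteins, fell by 1.18, and without PBS 3 they fell by 0.75 and 0.61. The other acidic protein, Rplp2, had 8297, 8346 and 29598 against 7112, 6009.6 and 6754, with a log2 fold change of -0.94 (SE 0.49) that did not pass with all libraries (adjusted p = 0.174) and of -0.33 without PBS 3 (adjusted p = 0.0064). Its values without PBS 3 were thus the least changed of the stalk.

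The 5S RNP, the particle of 5S rRNA with Rpl5 and Rpl11 that also binds and restrains the p53 ligase Mdm2, had both proteins called lower. Rpl5 (chr5:107900502-107909005) was at 25479.6, 25513 and 65501 in PBS and 16033, 14259 and 14771 in pIpC. Rpl11 (chr4:136028265-136053428) was at 19123, 19857 and 53897 in PBS and 13223, 11165 and 11457 in pIpC. They fell by similar amounts, 1.22 (SE 0.38, adjusted p = 0.0431) and 1.20 (SE 0.40, adjusted p = 0.0567), and by 0.77 and 0.71 without PBS 3.

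Of the proteins that reach toward the peptidyl transferase centre, where peptide bonds form, Rpl10 fell by 1.14 and Rpl3 by 0.95, and Rpl8 was at -0.96 with an adjusted p of 0.103. Without PBS 3 all 3 fell, by 0.76, 0.59 and 0.48. Of the 9 genes of the exit tunnel and its rim (Rpl4, Rpl17, Rpl19, Rpl22, Rpl23a, Rpl26, Rpl31, Rpl35 and Rpl39), 8 were called lower with a median of -1.18, the exception being Rpl22 at -0.91 (adjusted p = 0.115), and without PBS 3 all 9 were, with a median of -0.66. The range within this group, from -1.60 for Rpl39 to -0.80 for Rpl23a, was wider than that of the stalk.

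At the other end of the large subunit were Rpl3l, Rpl7l1 and Rpl22l1, all of them variants and taken up with their parents below. Among its core genes 7 of 46 did not pass with all libraries, and all 46 passed without PBS 3.

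Within the small subunit, the lowest fold changes were those of Rps29, Rps24, Rps28, Rps7 and Rps23. Rps29, a zinc-binding protein of the head, was at 7487, 8926 and 29362 in PBS and 5246, 5092 and 5420.0 in pIpC, and fell by 1.25 (SE 0.49, adjusted p = 0.0887). Rps24 went from 31639.9, 31669 and 93572 to 21073, 18131 and 18204, a fall of 1.25 (SE 0.43, adjusted p = 0.0607). Both had no overlap between groups, and without PBS 3 they fell by 0.64 and 0.73. Rps28, Rps7 and Rps23 fell by 1.21, 1.18 and 1.17, and by 0.68, 0.79 and 0.73 without PBS 3.

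Of the 5 genes on the mRNA entry and decoding side (Rps2, Rps3, Rps9, Rps15, Rps23), 3 were called lower with a median of -0.92. On the mRNA exit side, Rpsa fell by 0.97, Rps26 by 1.10 and Rps28 by 1.21, and Rps14 was at -0.96 as given above. Rps3, which holds the mRNA at the entry, was at -0.92 (adjusted p = 0.104) and Rps9 at -0.75 (adjusted p = 0.132). Without PBS 3 all 5 on the entry side fell, with a median of -0.52, and Rpsa, Rps26, Rps28 and Rps14 fell by 0.50, 0.65, 0.68 and 0.49. A difference between these sides was not tested.

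Rps6, the subunit protein phosphorylated by the S6 kinases downstream of mTOR, was at 35309, 36213 and 81866 in PBS and 24109, 21224 and 21845 in pIpC, and fell by 1.08 (SE 0.34, adjusted p = 0.0475), and by 0.68 without PBS 3. Rps27a, made as a fusion with ubiquitin, was at 19820.3, 19665 and 59763 in PBS and 15999, 13338 and 14481 in pIpC, with a log2 fold change of -0.97 (SE 0.43, adjusted p = 0.126) that without PBS 3 was a fall of 0.44 (adjusted p = 0.002). The 4 genes on chromosome X, Rpl10, Rpl36a, Rpl39 and Rps4x, all fell, with a median of -1.20, and of -0.73 without PBS 3. All 4, from -1.60 to -1.14, lay below the median of the members tested, which was -1.02, and -0.58 without PBS 3. The lower quartile of the members was -1.17, and -0.69 without PBS 3. The chromosome X transcript Xist was higher in the same pIpC libraries.

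Of the 9 genes listed for Diamond-Blackfan anemia, 7 were called lower (8 without PBS 3), among them Rps7, Rps24, Rps26, Rpl5, Rpl11 and Rpl35a. These shares, 77.8% and 88.9% without PBS 3, were near those of all members tested, 70.2% and 92.9%. Over all genes tested they were 20.4% and 30.6%. Rps19, the gene most often mutated in that disease, was at 11231, 11402 and 37041 in PBS and 8796, 6779.9 and 7675 in pIpC, with a log2 fold change of -1.12 (SE 0.46, adjusted p = 0.101), and fell by 0.55 without PBS 3 (adjusted p = 0.0015). Rps10 (chr17:27630418-27636669), showed no difference. It was at 136, 108 and 219.5 in PBS and 169.7, 145 and 133 in pIpC, with overlapping groups, a log2 fold change of 0.01 (SE 0.29, adjusted p = 0.986), and 0.29 (SE 0.18, adjusted p = 0.202) without PBS 3. Its direction turned in 8 of the settings tried, and its low count and its overlap with the annotated RPS10-NUDT3 gene are given above.

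The other small subunit genes with the highest fold changes were Rps27 and Rps9. Rps27 (chr3:90212522-90213651) was at 7136, 7068 and 19009 in PBS and 6898, 5878 and 5926 in pIpC, with a log2 fold change of -0.67 (SE 0.38, adjusted p = 0.219) and of -0.19 without PBS 3 (adjusted p = 0.0705). Its pIpC 1 value lay just under those of PBS 1 and 2. In all, 13 of 31 core small subunit genes did not pass with all libraries, and Rps10 alone did not without PBS 3.

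The like variants were lower than their parents. Per kb of transcript, the PBS means were 4135 for Rpl22l1 against 25559 for Rpl22, 1409 for Rpl7l1 against 31957 for Rpl7 and 4738 for Rps27l against 32089.8 for Rps27, and the pIpC means 2209 against 12184, 957 against 14906 and 2436 against 18069. Shares of the parent's count given below are not per length and serve to compare libraries. Rpl39l, known from testis, had 0 reads in all 6 libraries, where Rpl39 had a normalized count of 3068 or more, and Rpl10l, another testis copy, had 0 as well. A count of 0 allows up to 3 reads a library, counting error only. These are the 2 members that could not be tested, and no ratio is given for them.

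Rpl22l1 (chr3:28805436-28807424) was at 1367, 1293 and 4187 in PBS and 1470.1, 1062 and 1127 in pIpC, and its groups overlapped. Its log2 fold change was -0.69 (SE 0.45, adjusted p = 0.271), and -0.14 without PBS 3 (SE 0.13, adjusted p = 0.385). Rpl22, its parent, was at 7906, 7601 and 20838 in PBS and 6726, 5238 and 5361 in pIpC, with no overlap, at -0.91 (adjusted p = 0.115), and fell by 0.43 without PBS 3. As a share of the parent's normalized count, Rpl22l1 was 17.3%, 17% and 20.1% in PBS 1, 2 and 3 and 21.9%, 20.3% and 21% in pIpC 1, 2 and 3. The pIpC shares lay above all PBS shares, by 0.22 on the log2 scale (-2.25 ± 0.05 against -2.47 ± 0.13, SD, n = 3), with an exact permutation p of 0.1 (two-sided, adjusted over 3 pairs 0.15), and by 0.29 without PBS 3. That is the smallest p the design allows, so this difference could not have passed.

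Rpl7l1 (chr17:46773907-46782672), whose relatives in other species act in assembly of the large subunit, was at 3298, 3437 and 4279 in PBS and 2776, 2282 and 2421 in pIpC. It fell, but less than most members, by 0.55 (SE 0.15, adjusted p = 0.0276) and by 0.44 without PBS 3 (adjusted p = 0.0024). For this gene PBS 3 was at 1.27-fold the mean of PBS 1 and 2. Its transcript, at 2606 bp, is the longest of the large subunit genes. The small subunit genes Rps20 (3706 bp) and Rps15a (5179 bp) have longer ones and were at 3.55-fold and 2.78-fold in PBS 3. The part of length in these values was not tested. Rpl7 was at 27809, 27708 and 55982 in PBS and 18776, 16408 and 16823 in pIpC and fell by 1.02 (SE 0.30, adjusted p = 0.0353), and by 0.68 without PBS 3. The share of Rpl7l1 was 11.9%, 12.4% and 7.64% of Rpl7 in PBS and 14.8%, 13.9% and 14.4% in pIpC, a difference of 0.47 on the log2 scale (-2.80 ± 0.04 against -3.27 ± 0.39, exact permutation p = 0.1, two-sided, adjusted 0.15) and of 0.24 without PBS 3. With the length trend removed the difference was 0.20.

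Rps27l (chr9:66946086-66949516), a target of p53 that resembles Rps27, was at 1332, 1489.9 and 4271 in PBS and 1403, 1058 and 1186 in pIpC, and its groups overlapped (log2 fold change -0.76, SE 0.43, adjusted p = 0.217, and -0.22, adjusted p = 0.136, without PBS 3). Its share of Rps27 was 18.7%, 21.1% and 22.5% in PBS and 20.3%, 18.0% and 20.0% in pIpC. These shares overlapped, with a log2 difference of -0.09 (-2.36 ± 0.10 against -2.27 ± 0.14, exact permutation p = 0.4, two-sided, adjusted 0.4), and of -0.03 without PBS 3.

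**Figure D5:**
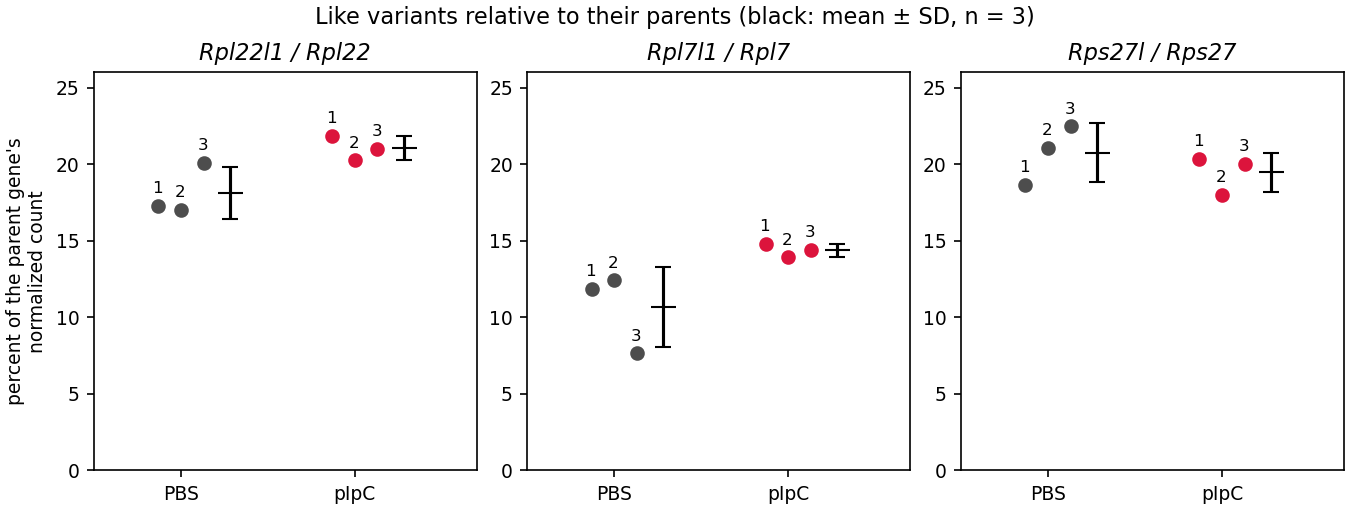
Normalized count of each like variant as a percent of its parent's, for each library (points numbered by replicate) with the mean ± SD in black (n = 3). For Rpl22l1 and Rpl7l1 all pIpC points lie above all PBS points (20.3% to 21.9% against 17% to 20.1%, and 13.9% to 14.8% against 7.64% to 12.4%), and for Rps27l the groups overlap.

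Other copies matched by the rule were scarcer still. Rpl36al was at 147, 167 and 239.9 in PBS and 84.8, 88.9 and 78.3 in pIpC and fell by 1.10 (SE 0.24, adjusted p = 0.0112), the smallest adjusted p of any member, and its parent Rpl36a fell by 1.24 (SE 0.44, adjusted p = 0.0697). Without PBS 3 they fell by 0.89 and 0.71. Its share of Rpl36a, 0.81% to 1.67% in PBS and 1.10% to 1.71% in pIpC, overlapped between groups. Rps27rt, a retrogene of Rps27, was at 83.1, 105 and 222 in PBS and 66.9, 82.8 and 65.8 in pIpC, with a log2 fold change of -0.80 that did not pass (SE 0.38, adjusted p = 0.148), and of -0.38 without PBS 3. Reads of such near-identical copies may be split or lost in counting, so their levels are uncertain. Rpl3l, known from heart and skeletal muscle, was at 10.4, 6.07 and 7.92 in PBS and 11.0, 13.3 and 20.3 in pIpC, that is 6 to 21 reads a library, with a log2 fold change of 0.78 (SE 0.39, adjusted p = 0.165), and of 0.78 without PBS 3 as well. It was the single subunit gene higher in all pIpC libraries than in any PBS library, at 0.012% to 0.10% of Rpl3, which had 19757 to 64988. Rps19bp1 was at 184, 221 and 594 in PBS and 276, 219 and 219.5 in pIpC, with overlapping groups (log2 fold change -0.29, adjusted p = 0.629, and 0.23, adjusted p = 0.243, without PBS 3).

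Other genes of the translation machinery are read against the same shares of all genes, 20.4% called lower and 25.0% higher, or 30.6% and 34.5% without PBS 3. Of 21 TOP mRNAs outside the rule, 12 were called lower and 1 higher, with a median of -0.68, and 18 and 1 without PBS 3 with a median of -0.43. Rack1, a protein of the small subunit head, was at 27733, 28034 and 60536 in PBS and 17418, 16374 and 16598 in pIpC and fell by 1.10 (SE 0.32, adjusted p = 0.0341), and by 0.73 without PBS 3. Fau, made as a fusion with a ubiquitin-like protein, was at -1.09 (adjusted p = 0.130), and fell by 0.47 without PBS 3. The lowest of the list was Tpt1, which fell by 1.21 and by 0.81 without PBS 3, and the highest was Vim, an intermediate filament gene, which rose by 0.73 (SE 0.23, adjusted p = 0.0486), and by 0.98 without PBS 3. The elongation factor gene Eef2 did not differ in PBS 3 as the ribosomal protein genes did: it was at 57344, 55487 and 54102 in PBS and 33702, 35266 and 34957 in pIpC, and fell by 0.68 (SE 0.16, adjusted p = 0.0139) and by 0.70 without PBS 3.

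Mitochondrial ribosomal protein genes, whose products make the separate ribosome of that organelle, showed smaller medians. Of 77 tested, 13 were called lower and 0 higher with a median of -0.41, and without PBS 3, 21 were called lower and 9 higher with a median of -0.07. The lower calls are 16.9% of those tested against 20.4% of all genes, and 27.3% against 30.6% without PBS 3. Against PBS 1 and 2 they were at a median of 2.13-fold in PBS 3, near the 2.62-fold of the cytosolic genes, but at 0.95-fold in pIpC against 0.67-fold for the cytosolic genes. The lowest, Mrpl17, fell by 1.04 (adjusted p = 0.0501) and by 0.64 without PBS 3, and the highest, Mrpl47, was at 0.65 (adjusted p = 0.188) and rose by 1.03 without PBS 3.

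Of the 8 tested chaperones and escorts that carry single ribosomal proteins to the assembling subunits, 4 were called lower with a median of -0.50, and 7 without PBS 3 with a median of -0.36, where 20.4% and 30.6% of all genes were. The lowest was Heatr3, an import factor for Rpl5, at 1049, 1226 and 1296 in PBS and 765, 662 and 631 in pIpC (log2 fold change -0.79, SE 0.14, adjusted p = 0.00534, and -0.73 without PBS 3), and the highest was Bccip, a partner of Rpl23, at -0.19 (adjusted p = 0.498) and at 0.02 without PBS 3. Pdcd2 was listed at 0 in all libraries. Of the 8 regulators, 1 was called lower and 2 higher, near the shares of 20.4% and 25.0% over all genes. Their median was 0.19, 0.06 without PBS 3 and -0.13 with the length trend removed, so its sign depended on the setting. Myc, which raises transcription of ribosomal protein genes, was at 2667, 2582 and 4145 in PBS and 1834, 1727 and 1670.0 in pIpC and fell by 0.81 (SE 0.20, adjusted p = 0.0193), and by 0.59 without PBS 3. Rps6kb2, an S6 kinase, rose by 0.61 (adjusted p = 0.0269) and Eif4ebp2, a translation repressor under mTOR, rose by 0.35 (adjusted p = 0.0791). Neither passed with the length trend removed (0.38, adjusted p = 0.242, and 0.03, adjusted p = 0.831). Larp1, Mtor, Rptor and Rps6kb1 did not pass, at 0.18 to 0.37, and neither did Eif4ebp1 at -0.73 (adjusted p = 0.138), which fell by 0.32 without PBS 3. Of 7 proliferation genes, 3 were called higher and 1 lower, with a median of 0.34. Mki67, Top2a and Ccnb1 rose by 0.98, 0.74 and 0.67, Mcm2 fell by 0.34, and Mcm5, Pcna and Cdk1 did not pass, at -0.26, -0.36 and 0.34. Without PBS 3, 4 were called higher and 2 lower, with a median of 0.46.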

How the data were processed

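The authors deposited gene counts divided by 1 size factor per library, treated here as a signal, and whole reads were recovered from them (100% of values within 0.01 of a whole number). The submitters' processing notes name HISAT2 2.2.1, featureCounts and edgeR on GRCm38, whereas the study's methods describe STAR with RSEM and DESeq2 on mm10, and which pipeline made the table is not stated. The notes give unstranded poly(A) libraries and GFP+ cells, the methods stranded libraries and c-Kit+ cells. Names, positions and lengths came from GENCODE release M21 (55227 of 55487 IDs).

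limma 3.58.1 (R 4.3.3) with an intensity trend was run on log2(normalized count + 1) for 15020 genes with a mean of at least 10, with no replicate block and Benjamini-Hochberg adjusted p under 0.1. Fold changes on this scale understate those of low genes. Ratios of variant to parent had exact permutation tests (SciPy 1.17.1). Alternatives included edgeR 4.0.16 and DESeq2 1.42.0 on recovered reads. Scripts were tested on simulated data. Named genes were the variants and other copies with their parents, the role groups, and the extremes of each other list. For each subunit they also included the 5 lowest and 3 highest fold changes and the 3 highest levels per kb. Eef2, Rps15a, Rps20, the remaining regulators and the proliferation genes were named after their values were seen. Results for a few single genes are not reported here. The members and lists were chosen with earlier results of these data known.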

Additional observations from a re-analysis of the deposited data

How the results depend on the processing

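Counts of members called lower moved most, and the median log2 fold change stayed between -1.24 and -0.48 in every setting tried. Leaving out single libraries, the count over all members ranged from 3 to 78, over the large subunit from 3 to 48 and over the small from 0 to 30. In the same fits 12.4% to 30.6% of all genes tested were called lower. In the fit without pIpC 2, where no small subunit gene passed (limma), 1 had an unadjusted p under 0.05, and without pIpC 3 it was 2, while edgeR on all libraries called 28. At an adjusted p under 0.05 the counts were 19, 15 and 4. The small subunit count was 32 with DESeq2, 28 with edgeR, 30 with quantile normalization, 32 with total-count scaling and 28 without PBS 3 and with the length trend removed, a setting chosen after seeing the data. Quantile normalization and total-count scaling put the all-gene median at -0.12 and -0.13, and moved lower calls over all genes from 44.9% of calls to 55.7% and 58.8%; relative to that shift the members' medians were -0.76 and -1.03. The replicate numbers did not pair the samples (correlations of deviations -0.12, 0.14 and 0.04), and with a replicate block 65 members were called lower, 42 and 23 by subunit, and the lower calls among chaperones went from 4 to 1 and among proliferation genes from 1 to 0.

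The difference in the large to small ratio ranged from -0.06 to -0.02 over libraries left out. The variant to parent difference ranged from 0.17 to 0.29 for Rpl22l1, from 0.24 to 0.59 for Rpl7l1 and from -0.16 to -0.03 for Rps27l, and other settings moved none of these beyond 1 SD. Some did leave these ranges: Rpl7l1 was at 0.20 with the length trend removed. With the GC trend removed, Rpl22l1 was at 0.14 and Rps27l at -0.17. Brd9 ranged from 0.12 to 0.24 with single libraries left out and from 0.061 (quantile) to 0.26 (length trend removed) over all settings, and passed in none. Over 1280 single-gene comparisons for 61 named genes, 1031 kept direction and side of the threshold, 135 lost the call, 100 gained it and 14 turned: Rps10 (-0.050 in DESeq2, -0.063 in edgeR, -0.030 median-centred, -0.039 quantile, -0.13 total-count, and -0.22 to 0.29 with single libraries left out), Bccip (0.081 with the length trend removed, with and without the replicate block, 0.090 without PBS 3 and with that trend removed, and -0.30 to 0.015 with single libraries left out), Rpl22l1 (0.024 without PBS 3 and with the length trend removed) and Rpl3l (-0.068 quantile). The causes were not tested. With 3 libraries a group, 0.1 is the smallest exact p.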
